A study of Schizosaccharomyces pombe with 50 samples.

Results

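The prp and cwf genes encode parts of the spliceosome, the machine that cuts introns out of pre-mRNA. They were taken here as every gene of the deposited tables whose name is prp or cwf followed by digits, which gave 41 genes of 6613 windows: 19 prp genes and 22 cwf genes, 21 on the plus strand and 20 on the minus strand. Histone marks, the histone variant H2A.Z, histone H3 and RNA polymerase II were mapped by ChIP-seq with 8 antibodies in fission yeast strain Hu3112, whose genotype is mat1-M smt-0 pht1-myc. Every library came from this strain, so the myc tag on Pht1, the H2A.Z of this yeast, was shared by both groups. The V cells were vegetative cells in logarithmic growth in the minimal medium PMG, and the Q cells were quiescent cells kept for 24 h in PMG without nitrogen. Each antibody had 3 V and 3 Q libraries, 48 in all. The study describes its replicates as biological, although the labels name no separate cultures. The p-values measure the spread between these libraries, with the variance of each window moderated toward that of windows at similar levels. A value is an average over the population, and a change in every cell cannot be told apart from a larger change in part of the cells.

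In splicing, U1 and U2 snRNPs first mark the 5′ splice site and the branch site. The U4/U6.U5 tri-snRNP then joins, RNA helicases remodel the assembly, and the Prp19 complex holds the catalytic form together. The prp genes were named from mutants in pre-mRNA processing and the cwf genes from proteins that purify with Cdc5, a core subunit of the Prp19 complex. H3K4me3 is laid down by the Set1 complex and usually peaks at the 5′ end of transcribed genes, and H2A.Z is also typical of 5′ ends. S5 and S2 are phosphorylated forms of the polymerase tail that mark early and late elongation.

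Each gene was measured in a TSS window of 400 bp and an ORF window. The TSS window was centred on the lower coordinate of the gene, so it lay at the 5′ end of the 21 plus-strand genes and at the 3′ end of the 20 minus-strand genes. In all 20 minus-strand genes its centre equalled the lower end annotated in RefSeq (ASM294v3), whereas those of plus-strand prp17 and cwf11 lay 550 and 277 bp below the annotated starts, so their TSS windows ended before those starts and lay wholly upstream of the annotated genes. The ORF window began at the same place and, where a gene has introns, it could stop 200 bp past the exon of lowest coordinate. In 10 genes it covered less than 50% of the gene. It held the 5′ part in cwf10, cwf14, prp3, prp18, prp19, prp38 and prp45. In minus-strand cwf5 and cwf19 it held the 3′ part, and in prp17 mostly bases before the annotated start. ORF windows of the 41 genes ran from 463 bp (cwf10) to 4646 bp (cwf11). All 41 genes passed the filter on low values in every table. For 19 of them the ORF window shared bases with another gene, for example prp2 with prp2-antisense-1, and ChIP reads do not tell such genes apart.

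The splicing genes are themselves spliced: 23 of 41 (56.1%) had more than 1 coding exon, against 46.9% of the 5039 protein-coding genes. Their 40 introns between coding exons had a median length of 51 bp (range 38 to 485 bp), and 56 bp was the median of 5011 such introns in all protein-coding genes. The first introns of prp19, cwf14, prp45, prp3 and cwf10 are printed because the ORF windows called lower for H3K4me3, described below, were exactly the short windows of these genes, which stop near these introns. Sequences and coordinates are from RefSeq, build ASM294v3. Capitals mark the first 6 bases, the last match to CTNAC or CTNAT, letters that branch sites of this yeast usually carry, and the closing AG.
prp19, intron 1, chrI:5133300-5133339, plus strand: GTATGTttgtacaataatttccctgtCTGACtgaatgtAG
cwf14, intron 1, chrII:2343736-2343805, plus strand: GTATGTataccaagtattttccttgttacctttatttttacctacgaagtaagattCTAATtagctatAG
prp45, intron 1, chrIII:1502721-1502763, plus strand: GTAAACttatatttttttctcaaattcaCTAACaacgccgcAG
prp3, intron 1, chrI:4404168-4404217, plus strand: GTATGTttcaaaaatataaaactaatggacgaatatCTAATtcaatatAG
cwf10, intron 1, chrII:4052627-4052670, plus strand: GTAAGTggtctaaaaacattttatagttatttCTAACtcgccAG
On the coding strand, 28 of the 40 introns (70.0%) began with GTANGT, against 54.2% of all 5011, and 39 of 40 (97.5%) held CTNAC or CTNAT, against 83.8%. All 40 ended in AG. The intron of prp45 printed here starts with GTAAAC and is one of those without GTANGT.

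The 200 bases before the annotated start are printed for cwf11 and cwf14, the plus-strand genes with the largest H3K4me3 loss at the 5′ end, with any TATAAA in capitals.
cwf11, 200 bases before the start, chrII:922472-922671, plus strand: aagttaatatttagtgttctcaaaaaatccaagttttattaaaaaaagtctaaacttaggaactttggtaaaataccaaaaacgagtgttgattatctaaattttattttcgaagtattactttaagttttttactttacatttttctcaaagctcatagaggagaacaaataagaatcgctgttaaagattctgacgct
cwf14, 200 bases before the start, chrII:2343341-2343540, plus strand: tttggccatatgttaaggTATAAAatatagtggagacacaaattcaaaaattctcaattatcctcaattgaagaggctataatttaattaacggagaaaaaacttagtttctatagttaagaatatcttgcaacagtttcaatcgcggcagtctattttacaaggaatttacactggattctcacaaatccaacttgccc
TATAAA stood on either strand of this stretch in 17 of the 41 genes (41.5%) and in 37.0% of all 5039 protein-coding genes. cwf14 held a match and cwf11 did not. CAGTCAC, a motif typical of ribosomal protein promoters, was in none of the 41 and in 4.45% of all genes. ACGCGT, the core of the S-phase MBF motif, was in 1 of the 41, prp22, and in 2.34% of all. These are matches of letters only.

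The libraries held 170278 to 20673131 reads in windows. The H3K4me3 libraries held 430785 to 1614939 reads in TSS windows, with V replicate 1 the shallowest. Q replicates 2 and 3 of S5 and of S2 differed by less than sampling noise and were averaged as 1 library, so the polymerase fits had 2 Q libraries. For H2A.Z in TSS windows, replicates 2 and 3 also differed by about sampling noise. Their chi-square per degree of freedom was 0.99 in V and 1.08 in Q cells. They were kept separate, so the H2A.Z p-values treat them as independent libraries. The TSS column of S2 V replicate 3 equalled that of H3K9me2 V replicate 3 in 6612 of 6613 windows and was left out of the S2 TSS fit. Values are reads divided by a size factor per library, called normalised reads here, and changes are relative to the bulk of windows. Fold changes are Q minus V on the log2(value + 1) scale, and a gene was called changed at a Benjamini-Hochberg adjusted p under 0.05 over all windows with a change beyond 1 on the log2 scale, fitted with limma.

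H3K4me3 gave 25 called splicing genes in TSS windows, more than any other antibody, and its direction followed the end of the gene that was measured. Of the 21 plus-strand genes, measured at the 5′ end, 13 were called lower in Q cells, none was called higher, and all 21 had an adjusted p under 0.05. Of the 20 minus-strand genes, measured at the 3′ end, 12 were called higher and none lower. Across all 6556 TSS windows 36.4% were called higher and 21.7% lower. At an adjusted p under 0.05 alone 16 splicing genes were higher and 23 lower, beside 44.4% and 43.6% of all windows. These were all 21 plus-strand genes, lower as were 76% of plus-strand protein-coding windows, and on the minus strand 16 higher, as were 67.7%, and 2 lower. Among plus-strand protein-coding windows 10.3% were called higher and 41.2% lower, and among minus-strand ones 56.8% and 7.91%. The median log2 change was -1.07 at the 21 5′ windows, beside -0.90 for all plus-strand protein-coding genes, and 1.77 at the 20 3′ windows, beside 1.37. The same strand split was present over all protein-coding genes.

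The 3 largest losses at a 5′ end were at cwf11, cwf14 and cwf26. For cwf11, a large RNA helicase family protein, the 400-bp window held 332, 392 and 396 normalised reads in V replicates 1, 2 and 3 and 116, 109 and 130.1 in the Q replicates (log2 fold change -1.65 ± 0.12 SE, adjusted p = 3.0e-14, limma). Every Q library lay below every V library, and this window lies wholly upstream of the annotated start. For cwf14, the G10 protein related to budding yeast Bud31, the V libraries gave 454, 444 and 406 and the Q libraries 125, 139.7 and 157 (log2 fold change -1.63 ± 0.14 SE, adjusted p = 1.6e-12, limma). For cwf26, related to budding yeast Bud13, V libraries held 642, 631 and 608 and Q libraries 133, 246 and 280.2 (log2 fold change -1.58 ± 0.33 SE, adjusted p = 4.2e-05, limma). Q replicate 1 was the lowest Q library of cwf26 and the groups did not overlap. At prp19, the ubiquitin ligase that names the Prp19 complex, the values were 698, 571 and 502 in V and 147, 213 and 246 in Q cells (log2 fold change -1.56 ± 0.28 SE, adjusted p = 4.0e-06, limma). The remaining 9 called losses ran from -1.38 at prp18, a factor of the second catalytic step, to -1.03 at prp11. The losses closest to the fold threshold without passing it were prp43 at -0.99, prp2 at -0.96 and prp45 at -0.95. The smallest was -0.50 at cwf24.

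The 3 largest gains at a 3′ end were at cwf4, cwf18 and prp10. The window at the 3′ end of cwf4, related to budding yeast Clf1, held 34.4, 27.5 and 22.8 normalised reads in V and 225, 180.3 and 160.0 in Q libraries (log2 fold change 2.70 ± 0.34 SE, adjusted p = 4.7e-09, limma). That is a 6.49-fold difference with no overlap. The 3′ window of cwf18 held 62.6, 24.0 and 25.2 in V and 235, 228 and 191 in Q libraries (log2 fold change 2.65 ± 0.29 SE, adjusted p = 2.5e-10, limma). V replicate 1 was the highest V library of cwf18, and the same held for cwf4 and prp10. It was also the shallowest of the H3K4me3 libraries, and the part of depth in this was not tested. For prp10, the SF3B1 protein of the SF3b complex that holds the branch site, V libraries held 59.5, 26.6 and 19.7 and Q libraries 244, 188 and 162 (log2 fold change 2.59 ± 0.32 SE, adjusted p = 2.2e-09, limma). The other 9 called gains lay between 1.07 at cwf15 and 2.49 at prp31. Called gains thus began from V means of 25.6 (cwf21) to 68.0 (cwf15) normalised reads. The window of cwf21 also shares bases with that of snu6, the U6 RNA gene.

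Of the 20 3′ windows, 8 were not called higher, and those of cwf19 and cwf3 were lower in Q cells. At cwf19 the V libraries gave 257, 215 and 240.1 and the Q libraries 144, 160.3 and 151 (log2 fold change -0.64 ± 0.12 SE, adjusted p = 5.4e-06, limma), and at cwf3, related to budding yeast Syf1, 294, 321 and 309 and 183, 211 and 219 (log2 fold change -0.60 ± 0.14 SE, adjusted p = 2.3e-04, limma). Their V means of 237 and 308 were the highest of the 20. In RefSeq, 2 of the 20 windows hold the 5′ end of another protein-coding gene: that of rad52 is 122 bp from the centre of the cwf19 window and that of coa4 is 160 bp from that of cwf5, which changed by 0.64. For cwf3 the nearest is rsm10, 542 bp away. cwf20 and cwf7 had an adjusted p above 0.05, at log2 changes of 0.20 and 0.20, and only in cwf7 did the V and Q libraries overlap.

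**Figure D1:**
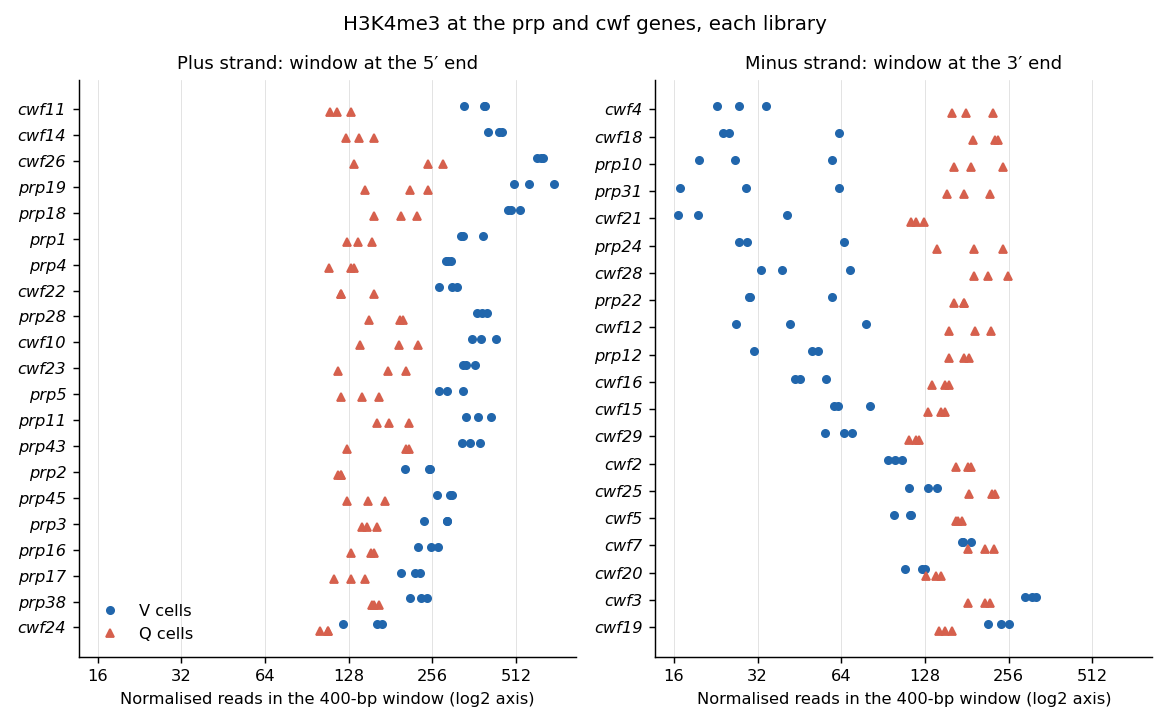
H3K4me3 in the 400-bp TSS window of each of the 41 genes, as normalised reads on a log2 axis, with 1 point per library (3 V libraries, 3 Q libraries); plus-strand genes, measured at the 5′ end, are on the left and minus-strand genes, measured at the 3′ end, on the right, ordered by fold change. The Q libraries of every gene on the left lie below its V libraries, and those of 17 of the 20 genes on the right lie above them, the others being cwf7, cwf3 and cwf19.

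The V and Q libraries did not overlap in 40 of the 41 genes. Over all TSS windows they did not overlap, with Q higher, in 45.5% and, with Q lower, in 44.3%. The shares were 15.9% and 75.5% of plus-strand and 68.8% and 21.6% of minus-strand protein-coding windows.

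The 2 ends met at similar levels in Q cells. In V cells the library medians over the 21 5′ windows were 329, 329 and 325 normalised reads and those over the 20 3′ windows 67.3, 42.6 and 49.2. In Q cells they were 126, 150.0 and 162 at 5′ windows and 186, 179 and 158 at 3′ windows. The same held over all protein-coding windows. On the plus strand their medians were 269, 286 and 276 in V and 136, 153 and 160 in Q libraries. On the minus strand they were 81.4, 55.9 and 55.9 in V and 190, 176 and 153 in Q libraries. The spread across the 41 genes, as the SD of log2 values, was 1.21, 1.57 and 1.55 in the V libraries and 0.38, 0.31 and 0.30 in the Q libraries. Across all TSS windows it also fell, from 1.38, 1.73 and 1.71 in the V libraries to 0.78, 0.77 and 0.76 in the Q libraries. Group means ranged from 25.6 (cwf21) to 627 (cwf26) normalised reads in V cells and from 105 (cwf24) to 220.4 (cwf28) in Q cells.

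By role, each group held genes of both strands and split accordingly. Among the 4 genes for branch site and U2 function, prp10 and prp12, both on the minus strand and both of SF3b, were called higher. prp12 went from 50.1, 31.1 and 52.8 in V to 184, 176 and 156 in Q libraries (log2 fold change 1.96 ± 0.28 SE, adjusted p = 6.7e-08, limma). prp11, a DEAD-box helicase on the plus strand, was called lower, from 416, 372 and 339 to 162, 179 and 211 (log2 fold change -1.03 ± 0.16 SE, adjusted p = 2.3e-07, limma). prp2, the U2AF subunit that binds the polypyrimidine tract, went from 203, 249 and 250.4 to 117, 119.7 and 120.2, a log2 change of -0.96 that did not pass the fold threshold. Among the 8 genes of the tri-snRNP and its assembly, prp24 and prp31, on the minus strand, were called higher. prp1, prp4, prp28 and cwf10, on the plus strand, were called lower. prp4, a protein kinase, had 297, 292 and 286 in V and 109, 134 and 130.1 in Q libraries (log2 fold change -1.23 ± 0.12 SE, adjusted p = 9.3e-12, limma), and prp28, the helicase that frees U1 from the 5′ splice site, 369, 400.4 and 387 and 151, 195 and 201 (log2 fold change -1.09 ± 0.16 SE, adjusted p = 6.4e-08, limma).

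The 3 late helicases also divided by strand. prp22, on the minus strand, which releases mRNA, rose from 59.5, 30.2 and 29.9 to 177, 177 and 163 (log2 fold change 2.16 ± 0.31 SE, adjusted p = 5.3e-08, limma). prp16, which remodels the spliceosome between the catalytic steps, went from 253, 267 and 228 to 131, 153 and 158, and prp43, which takes spliceosomes apart, from 379, 351 and 326 to 126, 206 and 211. Their log2 changes of -0.75 and -0.99 lay inside the fold threshold, and their V and Q libraries did not overlap. Of the 7 genes annotated to the Prp19 complex, prp5 and prp19 were called lower and none higher. Of the 18 other cwf genes, 7 were called higher and 5 lower.

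In ORF windows fewer splicing genes passed: 2 were called higher and 5 lower of 41, while 19.4% of all windows were called higher and 13.8% lower. The median log2 change was -0.01 over the 41 genes and -0.01 over all windows. On the plus strand it was -0.28, beside -0.45 for protein-coding ORF windows, and on the minus strand 0.17, beside 0.22. The 5 called lower were cwf14, prp19, prp45, prp3 and cwf10, the genes whose introns are printed above, and each window held only the 5′ part of its gene. The 8 plus-strand genes with windows under 50% of the gene, prp17 among them, were all lower at an adjusted p under 0.05. Their median was -1.22. At that level 1446 of 2499 plus-strand protein-coding ORF windows were lower and 659 higher, and 40.9% of all ORF windows were higher and 40% lower. The ORF window of cwf14, 569 bp long, held 678, 676 and 656 normalised reads in V and 181, 208 and 259.8 in Q libraries (log2 fold change -1.64 ± 0.14 SE, adjusted p = 6.3e-04, limma). prp19 had 822, 706 and 661 and 183, 258 and 309 (log2 fold change -1.57 ± 0.22 SE, adjusted p = 0.0018, limma), and prp45, related to human SNW1, 782, 673 and 649 and 226, 299 and 373 (log2 fold change -1.25 ± 0.20 SE, adjusted p = 0.003, limma). None of these groups overlapped, which held for 37 of the 41 genes in ORF windows, and the share over all windows was not computed. prp3, a U4/U6 protein, and cwf10, the GTPase of the U5 snRNP, changed by -1.24 and -1.19.

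The 2 ORF windows called higher belonged to prp24 and cwf3, both on the minus strand. Less 200 bp at each end, these windows covered 78.3% and 69.0% of the gene, counted from its 3′ end. Neither window reached the annotated 5′ end, so reads there were not counted. prp24, which anneals U4 and U6 RNA in budding yeast, had the lowest H3K4me3 of the 41 ORF windows in V cells, 103 normalised reads per kb, against a median of 457 per kb. Its libraries held 428, 260.1 and 232 in V and 1582, 1309 and 1156 in Q cells (log2 fold change 2.17 ± 0.11 SE, adjusted p = 5.0e-04, limma), a 4.52-fold rise to 455 per kb. cwf3 rose from 593, 525 and 481 to 1246, 1118 and 1002 (log2 fold change 1.07 ± 0.06 SE, adjusted p = 5.0e-04, limma), although its 3′ TSS window was lower in Q cells. Across the 31 genes whose ORF window covered 50% of the gene or more, the change went up with window length (Pearson's r = 0.64, Spearman's rho = 0.69, n = 31 genes that share libraries). The 7 windows over 3000 bp (prp1, prp10, prp11, prp12, prp16, prp22 and cwf11) all had a positive change with an adjusted p under 0.05, between 0.44 and 0.86. The 14 windows under 2000 bp had a median of -0.34, with 2 higher and 8 lower at an adjusted p under 0.05, the level that 40.9% and 40% of all ORF windows reached. The per-kb levels ranged from 103 to 1474 in V cells and from 297 (prp17) to 538 (cwf2) in Q cells.

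**Figure D2:**
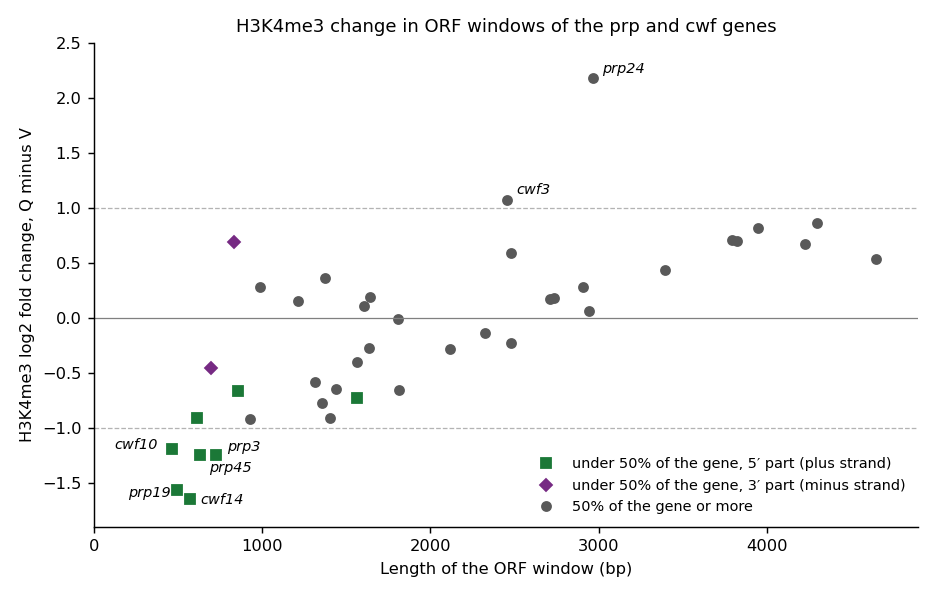
H3K4me3 log2 fold change (Q minus V) of each of the 41 genes in the ORF window against the length of that window in bp; squares and diamonds mark windows that cover under 50% of the gene, dashed lines the fold threshold. The 5 named squares lie below -1, prp24 and cwf3 lie above 1, and the 7 windows over 3000 bp all lie between 0.44 and 0.86.

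H3K4me3 directions in TSS windows kept their sign in all 41 genes under every alternative. Scaling by library totals moved the median of all windows by 0.20 on the log2 scale, and 7 instead of 13 5′ windows then passed the threshold, with 14 3′ windows. Without replicate 1, cwf10, cwf23, prp5, prp11 and prp28 were no longer called and prp2 was, which left 9 losses and the 12 gains. Relative to H3, the losses of prp4, prp5, prp18 and prp28 were no longer called, while those of prp2, prp43 and prp45 were. In ORF windows cwf10 and prp45 were no longer called without replicate 1, which left 3 losses.

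H2A.Z passed the threshold at few splicing genes. In TSS windows 3 of 41 genes were called higher in Q cells, cwf2, prp12 and cwf28, all on the minus strand, and none lower, beside 8.37% and 1.28% of all windows. At an adjusted p under 0.05 alone, 14 were higher and 16 lower, beside 39.7% and 38.2% of all windows. All 12 plus-strand genes that met this were lower, and of the minus-strand genes 14 were higher and 4 lower. Of plus-strand protein-coding windows 20.1% were higher and 56.6% lower at this level and of minus-strand ones 58.4% and 22.3%. With the fold threshold the shares were 4.25% and 2.05% on the plus strand and 12.7% and 0.358% on the minus strand. The median log2 change was -0.48 at 5′ windows and 0.64 at 3′ windows, beside -0.36 and 0.42 for all protein-coding genes. At cwf28 the V libraries held 218, 158 and 127 normalised reads and the Q libraries 461, 325 and 319 (log2 fold change 1.14 ± 0.11 SE, adjusted p = 3.0e-09, limma). At prp12 they held 164, 119.8 and 136 and 386, 293 and 249 (log2 fold change 1.13 ± 0.13 SE, adjusted p = 2.2e-08, limma), and at cwf2, an RNA-binding subunit of the Prp19 complex, 185, 153 and 129.8 and 391, 302 and 302 (log2 fold change 1.09 ± 0.12 SE, adjusted p = 9.4e-09, limma). Groups did not overlap in any of the 3, nor in 35 of the 41 genes in all, and the share over all windows was not computed. Q replicate 1 was the highest library in each of the 3. Without replicate 3, cwf4 and prp24 were called higher too, which made 5.

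The largest H2A.Z loss at a 5′ end, -0.79 at prp2, stayed inside the fold threshold, with 431, 494 and 499.8 in V and 238, 304 and 280.3 in Q libraries. prp24 lay just inside it on the other side at 0.99. Over the 41 genes H2A.Z and H3K4me3 changes in TSS windows had a Pearson's r of 0.86 (Spearman's rho = 0.79). Within the 20 3′ windows r was 0.66, and within the 21 5′ windows 0.30. These points share the window end, the libraries of each antibody and the size factors. In ORF windows no gene was called for H2A.Z by limma, beside 1.17% and 1.47% of all windows called higher and lower. At an unadjusted p under 0.05, 18 genes were higher and 17 lower, beside 39% and 40% of all windows, and edgeR and DESeq2 also called none. The largest change was -0.84 at cwf14, from 785, 943 and 963 in V to 339.6, 597 and 606 in Q libraries. Relative to H3, 5 genes were called higher and 1 lower in TSS windows. prp2 was the loss, cwf2 was then no longer called, and prp22, higher for H2A.Z alone, changed sign.

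**Figure D3:**
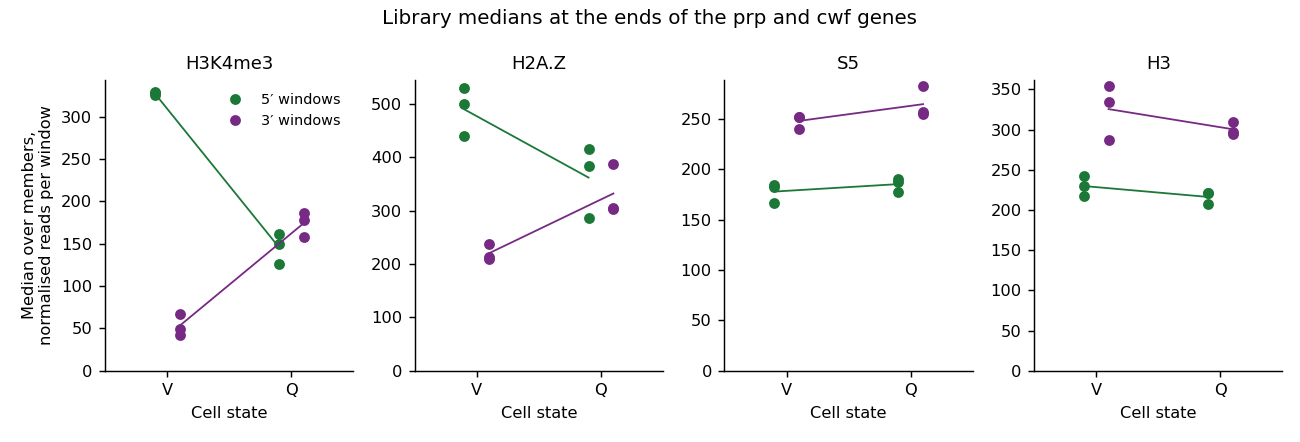
Median over the 21 plus-strand genes (5′ windows) and the 20 minus-strand genes (3′ windows) of the normalised reads in the TSS window, 1 point per library of V and Q cells, for H3K4me3, H2A.Z, S5 and H3; lines join the means of the 3 medians. For H3K4me3 the 5′ medians fall from 325 to 329 in V cells to 126 to 162 in Q cells while the 3′ medians rise from 42.6 to 67.3 to 158 to 186, and for S5 the 3′ medians lie above the 5′ medians in both states.

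RNA polymerase II gave no called splicing gene. For S5, limma called none of the 41 genes in TSS windows, beside 6.68% of all windows called higher and 1.74% lower, and none in ORF windows, beside 4.48% and 1.17%. At an unadjusted p under 0.05, 8 genes were higher and 10 lower in TSS windows, beside 27.1% and 25.9% of all windows, and 10 and 7 in ORF windows, beside 28.2% and 27.3%. edgeR and DESeq2 also called none. At an adjusted p under 0.05 alone, 7 were higher and 9 lower in TSS windows, beside 23.1% and 21.9% of all windows, with both signs on both strands. Median changes were 0.05 at 5′ windows and -0.04 at 3′ windows. The largest was at the 3′ end of cwf4, with 208, 161 and 164 normalised reads in V and 316, 255 and 274 in Q libraries (log2 fold change 0.66 ± 0.11 SE, adjusted p = 9.0e-04, limma). That is a 1.58-fold difference, where H3K4me3 in the same window differed 6.49-fold.

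Among the genes named for their role, S5 in the TSS window of prp12 went from 172, 162 and 167 to 265, 253 and 204, a log2 change of 0.53. prp22 went the other way, from 311, 315 and 378 to 231, 263 and 238 (-0.45), although both have their window at the 3′ end and both gained H3K4me3. Of the plus-strand genes, prp11, prp19 and prp28 were higher for S5 in Q cells by 0.40, 0.40 and 0.43 on the log2 scale, while prp4, prp16 and prp43 were lower, with log2 changes of -0.41, -0.35 and -0.31. All 6 lost H3K4me3 there at an adjusted p under 0.05. In ORF windows the largest change was at prp17, 0.44, from 319.9, 218 and 198 to 327, 336 and 364, which did not pass. Most of that window lay before the annotated start. Per kb, S5 in V cells ranged from 287 normalised reads at prp17, the lowest ORF window, to 896 at cwf25, the highest, and in Q cells these had 395 and 708. Relative to H3, prp22 alone was called lower in the TSS window and prp16 changed sign.

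For S2, limma called none of the 41 genes in TSS windows, beside 0.732% of all windows called higher and 0.381% lower, and none in ORF windows, where 0% of all windows were called in either direction. At an unadjusted p under 0.05, 6 genes were higher and 7 lower in TSS windows, beside 20.6% and 18.4% of all windows, and 2 and 5 in ORF windows, beside 12.1% and 14.2%. edgeR and DESeq2 called no splicing gene in either table. prp19 had the largest change in both. Its TSS window held 146 and 113 normalised reads in V replicates 1 and 2 and 213, 194 and 193 in the Q replicates (log2 fold change 0.66 ± 0.15 SE, adjusted p = 3.3e-04, limma). Its ORF window held 276, 214 and 139 in V and 355, 325 and 331 in Q libraries (log2 fold change 0.68 ± 0.30 SE, adjusted p = 0.22, limma). prp11 and prp28 were also higher in the TSS window, by 0.57 and 0.50, and prp16 and prp4 lower, with log2 changes of -0.59 and -0.49, all at an adjusted p under 0.05. These 5 genes had the same sign for S5.

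**Figure D4:**
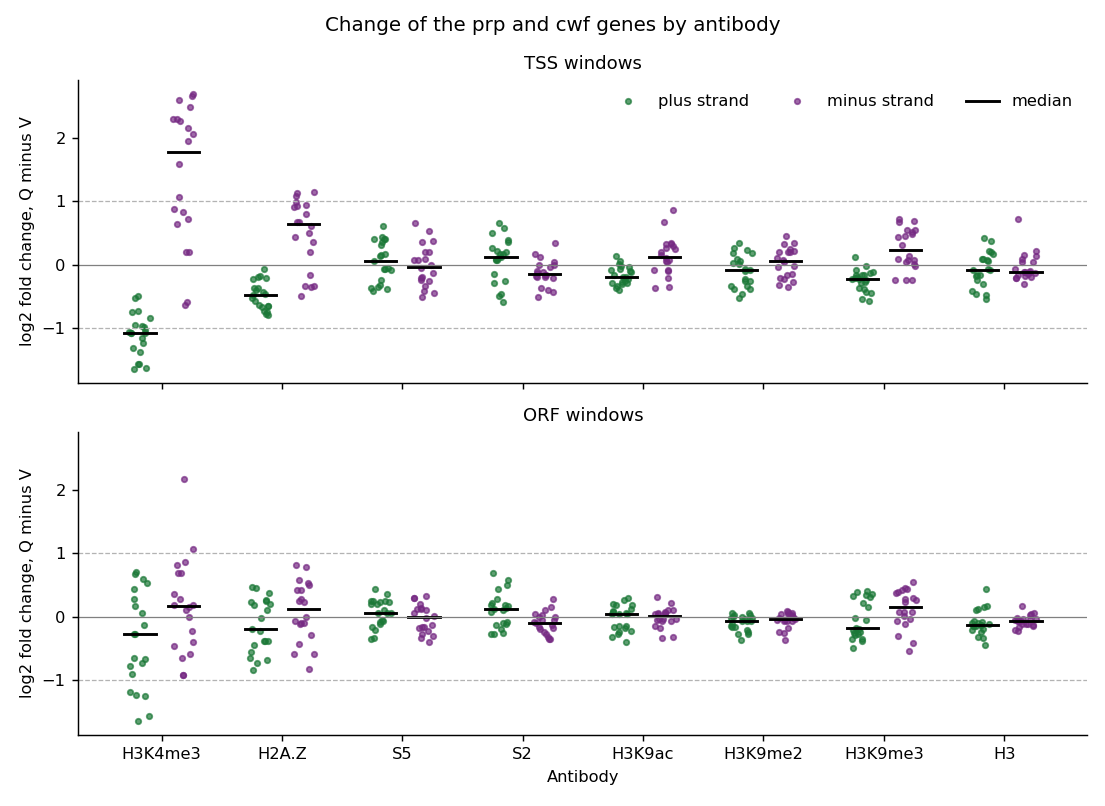
log2 fold change (Q minus V) of each of the 41 genes for the 8 antibodies, in TSS windows (top) and ORF windows (bottom); points are genes, split by strand, bars are medians and dashed lines the fold threshold. In TSS windows H3K4me3 has medians of -1.07 on the plus and 1.77 on the minus strand and H2A.Z -0.48 and 0.64, and no gene of S5, S2, H3K9ac, H3K9me2, H3K9me3 or H3 passes a dashed line in either panel.

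H3K9ac, H3K9me2, H3K9me3 and H3 gave no called splicing gene in either table by limma, edgeR or DESeq2. H3K9ac is a mark of active promoters, and 0% of all windows were called for it in either direction. At an unadjusted p under 0.05, 2 genes were higher and 7 lower in TSS windows, beside 12.2% and 14.1% of all windows, and 1 and 2 in ORF windows, beside 7.23% and 6.93%. The largest H3K9ac change was at the 3′ end of cwf21, from 202, 242 and 189.9 in V to 327, 381 and 443 in Q libraries (log2 fold change 0.86 ± 0.22 SE, adjusted p = 0.065, limma), and in ORF windows -0.41 at prp19. H3K9me2 and H3K9me3 mark heterochromatin. For H3K9me2, 0.0763% and 0.0915% of all TSS windows and 0.0152% and 0.913% of ORF windows were called higher and lower. No splicing gene was higher and 2 were lower at an unadjusted p under 0.05 in each table, beside 4.35% and 3.01% of all TSS and 4.69% and 2.6% of all ORF windows, with the largest changes -0.53 at cwf14 and -0.38 at cwf20.

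For H3K9me3, 0.153% and 0.595% of all TSS windows and 0.0304% and 0.639% of ORF windows were called higher and lower. At an unadjusted p under 0.05, 9 splicing genes were higher and 5 lower in TSS windows, beside 16.2% and 10.8% of all windows, and 16 and 9 in ORF windows, beside 20.9% and 14.4%. At an adjusted p under 0.05 alone, cwf4, cwf12 and cwf28 were higher in TSS windows, all at 3′ ends. cwf28 held 75.7, 89.0 and 114 in V and 122, 150.4 and 189.8 in Q libraries (log2 fold change 0.72 ± 0.18 SE, adjusted p = 0.019, limma). In all TSS windows 5.26% were higher and 2.49% lower at this level. In ORF windows 11 were higher and 2 lower, led by cwf3 at 0.54, beside 11.1% and 5.35% of all ORF windows, and none was without the replicate block. For H3, 2.41% of all TSS windows and 1.38% of ORF windows were called higher and 0% lower. At an unadjusted p under 0.05, 3 splicing genes were higher and 5 lower in TSS windows, beside 20.7% and 15.3% of all windows, and 0 and 11 in ORF windows, beside 20.1% and 12.7%. The largest H3 changes were at the 3′ end of prp22, from 201, 173 and 108 in V to 279, 243 and 251 in Q libraries (log2 fold change 0.72 ± 0.16 SE, adjusted p = 6.3e-05, limma), and in the ORF window of prp4, from 1262, 1324 and 1384 to 984, 944 and 986 (log2 fold change -0.45 ± 0.05 SE, adjusted p = 0.011, limma).

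Levels between genes, given per kb of the ORF window in V cells, were lowest at prp17 for S5, S2, H3K9me2, H3K9me3 and H3. S2 there was 325 normalised reads per kb, against a median of 742 over the 41 genes and 1114 at cwf25, and H3 was 376, against a median of 765 and 964 at prp10. The prp17 ORF window is one of the short ones, and its anchor lies 550 bp below the RefSeq start, so most of it lay before that start. H2A.Z was lowest at prp10, 451 per kb, and highest at cwf14, 1576 per kb, whose window holds little more than the 5′ end. In Q cells these had 795 and 904 per kb. H3K9ac was highest at prp38 in both windows, with 1818 per kb in the TSS and 1673 per kb in the ORF window, and 1520.3 and 1399 in Q cells.

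Other genes of splicing were listed by name, 82 without prp or cwf names. Of these, 71 were found, 36 on the plus and 35 on the minus strand, and 11 names had no match. The 71 include the Sm and Lsm ring proteins, SF3a and SF3b subunits, U1 proteins and spliceosomal RNA genes. For H3K4me3 in TSS windows 15 were called higher and 21 lower, beside 36.4% and 21.7% of all windows. On the plus strand 2 were higher (smd3 and mug161) and 18 lower, and on the minus strand 13 higher and 3 lower (lsm4, saf4 and msl1). Median log2 changes were -1.0 and 0.69, against -1.07 and 1.77 for the prp and cwf genes and -0.90 and 1.37 for all protein-coding genes. spp42, the Prp8 protein at the heart of the spliceosome, changed by -1.22, and cdc5 by -1.02, both on the plus strand. For H2A.Z in TSS windows 4 were called higher and 1 lower, beside 8.37% and 1.28% of all windows. In the same windows S5 gave 1 and 1, beside 6.68% and 1.74%, and S2 none, beside 0.732% and 0.381%.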

How the data were processed

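ChIP-seq libraries of V and Q cells were deposited as 16 tables, a TSS and an ORF table for each of 8 antibodies. Per the submitters' processing notes, reads were demultiplexed with bcl2fastq 2.20.0.422 and processed with BWA 0.7.17, SAMtools 1.17, deepTools 3.3.2 and DESeq2 on build ASM294v2. The deposited values are coverage signal, that is reads per window divided by the DESeq2 size factor that the authors computed for the library. They came out as whole reads in all 96 value columns (tolerance 1e-06 reads). Foreign chromatin was added before immunoprecipitation per the labels, but these values are not scaled to it, so a change shared by most windows cannot be seen. The deposited log2 fold changes and p-values of the authors' own comparison were not used, nor were the 2 input libraries.

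Each table was fitted with limma 3.58.1 (R 4.3.3, variance trend) on log2(value + 1) over windows with at least 10 normalised reads in at least 3 libraries, with the replicate number as a block, since the study removed batch effects. S5 and S2 used replicate 1 against the others instead, because Q replicates 2 and 3 were averaged. The fit was tested on simulated data without replicate or batch effects, so its behaviour under such effects was not tested. Alternatives were edgeR 4.0.16 and DESeq2 1.42.0 on the recovered reads, no block, library totals, a pseudocount of 5, no filter, values relative to H3, and each replicate left out. Window coordinates are ASM294v2 as deposited, and introns, strands and sequences are from RefSeq ASM294v3. Values per library are given for called genes (at most the 3 largest rises and 3 largest falls, by strand for H3K4me3 TSS windows), or for the largest change where none was called. They are also given for the genes of the helicases prp11, prp16, prp22, prp28 and prp43, for prp2, prp4, prp10, prp12 and prp19, and for the genes of highest and lowest level per kb. The genes and lists were chosen with earlier results of these data known. Other genes were named after their values were seen.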

Additional observations from a re-analysis of the deposited data

How the results depend on the processing

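H3K4me3 losses in TSS windows numbered 13; scaling by library totals left 7, and an adjusted p without the fold threshold gave 23. In ORF windows library totals gave 1 rise and 8 losses, and leaving out a replicate gave 3 to 6 losses. Leaving out a replicate gave 3 to 5 H2A.Z rises in TSS windows. Relative to H3, H2A.Z had 5 rises and 1 loss in TSS windows and 1 loss (prp17) in ORF windows, and S5 and H3K9ac had 1 loss each (prp22) in TSS windows. The causes were not tested. The other 313 of 324 alternative counts lay within 1.5 times, where 0 called genes in both fits also counted as such. In the main fit only H3K4me3, and H2A.Z in TSS windows, had any called splicing gene. Most of these comparisons thus set 0 against 0 and say little about stability. Among genes with an adjusted p under 0.05, the sign turned only relative to H3, for prp22 (H2A.Z, TSS windows), prp16 (S5, TSS windows), prp4 (H3K4me3 and H2A.Z, ORF windows), and cwf23 and prp31 (H2A.Z, ORF windows). With no replicate block, H3K4me3 in TSS windows gave 12 rises and 13 losses, and no count of called genes moved by over 1.5 times. Same-numbered V and Q libraries deviated together in every pair for H2A.Z (correlations 0.40 to 0.61 in TSS windows) and for H3K9ac TSS windows, but not in every H3K4me3 pair (0.015 to 0.38). In TSS windows, replicates 1 and 3 deviated in opposite directions for H3 (-0.43 and -0.41) and for S5 (-0.24 and -0.22). edgeR on recovered reads called 12 rises and 15 losses. S2 TSS windows without replicate 1 or 2 were not run, since no residual degrees of freedom remained. Of the H3K4me3 libraries V replicate 1 was the shallowest, and it had higher 3′ values than V replicates 2 and 3 in the medians over genes.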
